A study of Mus musculus with 6 samples.

Results

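The NR4A orphan nuclear receptors and the genes around the transcription factor CREB were followed as 7 genes in RNA sequencing of mouse heart preparations: Nr4a1, Nr4a2, Nr4a3, Sik1, Crem, Creb1 and Crtc2. They were chosen by gene name, with the FPKM values of the same CCl4 and control libraries already known, and all 7 were found among the 32479 rows of the deposited table. Their own difference between the groups is therefore given as a description, and how many of them passed the fit across all rows is stated once, beside the share of all rows, as no evidence. The mice were described as C57BL/6J, 3 given carbon tetrachloride (CCl4) and 3 controls. CCl4 is a solvent that scars the liver when given repeatedly and served here to model cirrhosis. Whether the groups shared a substrain was not tested, and levels of the substrain-dependent gene Nnt, given below, differed between them. Each group has 3 libraries, labelled as primary cardiac fibroblasts. The sources used here do not state the age or sex of the mice, the dose, route or duration of CCl4, what the controls received, how the cells were isolated or whether cells were pooled.

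NR4A receptors are transcription factors with no established natural ligand, whose activity is set largely by how much of them is made. Their genes are immediate early genes, copied within minutes of a stimulus such as a hormone, calcium entry or cell stress. In one such route cyclic AMP activates protein kinase A, the kinase phosphorylates CREB on its DNA site, the cAMP response element (CRE), and CRTC coactivators join it there. Salt-inducible kinases such as the product of Sik1 phosphorylate the CRTC proteins and hold them in the cytoplasm, and Sik1 is itself a CREB target, which closes a feedback loop. In heart muscle cyclic AMP is best known as the messenger of adrenergic stimulation.

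The 3 NR4A genes share copies of the CRE core, TGACG, just upstream of their RefSeq start sites. Their promoters are shown because their transcripts had the lowest CCl4 levels relative to control among the 7 genes. RefSeq promoters (build GRCm38.p6, 250 bases before to 50 after the gene start, on the gene's strand) were matched for 4 of the 7 genes. They lie at chr15:101266596-101266895 on the plus strand for Nr4a1, chr2:57123954-57124253 on the minus strand for Nr4a2, chr4:48045055-48045354 on the plus strand for Nr4a3 and chr1:64532554-64532853 on the plus strand for Creb1. The RefSeq starts of Nr4a1, Nr4a3 and Creb1 lie inside the longer GENCODE genes given below. The end of the Nr4a3 window was not found in a GENCODE transcript of that gene. Capitals mark TGACG or its reverse complement CGTCA, searched on both strands.
Nr4a1: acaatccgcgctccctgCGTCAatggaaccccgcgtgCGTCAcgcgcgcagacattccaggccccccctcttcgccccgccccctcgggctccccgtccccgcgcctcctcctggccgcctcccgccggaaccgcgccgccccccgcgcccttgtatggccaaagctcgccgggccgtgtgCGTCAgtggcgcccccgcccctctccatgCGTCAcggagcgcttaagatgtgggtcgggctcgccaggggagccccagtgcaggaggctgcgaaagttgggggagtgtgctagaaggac
Nr4a2: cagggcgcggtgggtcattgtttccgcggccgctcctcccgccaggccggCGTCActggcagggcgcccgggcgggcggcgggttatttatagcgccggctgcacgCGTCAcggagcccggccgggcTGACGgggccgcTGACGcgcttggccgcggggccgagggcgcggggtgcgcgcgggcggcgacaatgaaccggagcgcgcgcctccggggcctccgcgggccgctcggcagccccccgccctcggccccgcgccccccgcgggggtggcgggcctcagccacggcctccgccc
Nr4a3: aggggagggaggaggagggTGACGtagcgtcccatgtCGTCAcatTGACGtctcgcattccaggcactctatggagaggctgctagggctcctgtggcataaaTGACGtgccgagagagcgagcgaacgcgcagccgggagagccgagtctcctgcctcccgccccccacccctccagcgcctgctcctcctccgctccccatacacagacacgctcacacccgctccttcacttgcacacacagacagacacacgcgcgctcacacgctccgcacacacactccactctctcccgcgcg
Creb1: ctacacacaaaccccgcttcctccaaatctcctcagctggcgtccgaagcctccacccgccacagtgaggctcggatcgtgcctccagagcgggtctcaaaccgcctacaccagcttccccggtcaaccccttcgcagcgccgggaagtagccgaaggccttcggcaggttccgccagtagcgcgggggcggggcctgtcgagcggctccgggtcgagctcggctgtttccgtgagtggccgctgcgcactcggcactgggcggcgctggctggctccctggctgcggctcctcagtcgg

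Each NR4A promoter held 4 matches to TGACG, and the Creb1 promoter held 0. Among all 32817 RefSeq promoters of the same length 20.8% held at least 1 match and 0.232% held 4 or more. In Nr4a1 the 4 matches began at -233, -213, -69 and -40 from the gene start, in Nr4a2 at -200, -144, -123 and -111, and in Nr4a3 at -231, -213, -205 and -147. The full palindromic CRE (TGACGTCA, which contains TGACG on both strands, in 1.79% of all promoters) was in none of these 4 windows, nor was the NR4A monomer site, the NBRE (AAAGGTCA, both strands, in 1.51% of all promoters). A match is a run of letters and was not tested for binding here.

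The libraries held abundant transcripts of heart muscle cells beside those of fibroblasts. The FPKM of 10 cardiomyocyte markers summed to 16931 to 18659 in CCl4 libraries and 12003 to 13895 in control libraries, against 583.8 to 593.0 and 456.8 to 736.1 for 10 fibroblast markers. All fibroblast markers were detected, and 6 of the 10 were higher in CCl4. Among these, Col1a1 had 15.9 to 17.8 FPKM in CCl4 and 2.65 to 5.06 FPKM in control libraries. The others were not called: Dcn at -0.29, Gsn at -0.18, Pdgfra at -0.11 and Tcf21 at 0.17 (difference of log2(FPKM + 1), CCl4 minus control). Of the 10 cardiomyocyte markers 2 were higher and 1 was lower, and all 5 erythroid genes were higher, at a summed 2231 to 4092 FPKM in CCl4 and 537.0 to 2268 FPKM in control libraries. Of 8 endothelial, 9 smooth muscle and pericyte and 7 macrophage markers 1, 3 and 1 were higher and 0, 0 and 1 were lower, with sums of 141.5 to 157.9, 185.6 to 271.4 and 136.3 to 151.1 FPKM in CCl4 and 119.6 to 137.7, 230.1 to 253.4 and 119.2 to 154.2 FPKM in control libraries. Neutrophil markers summed to 2.28 to 5.62 FPKM in CCl4 and 2.25 to 23.1 FPKM in control libraries with none of the 2 tested ones called. No marker was at 0 in every library. Lymphocyte, Schwann cell, adipocyte and mesothelial lists summed to at most 3.09 FPKM in CCl4 and 4.65 FPKM in control libraries, with none of their genes tested, and all 6 lymphocyte markers stayed under 1 FPKM. In such a mixture fewer cells of a type and less RNA per cell cannot be told apart. The part of cell makeup in the values below was not tested.

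Nr4a1 was the most abundant NR4A receptor in every library. It stood at 3.49, 1.97 and 1.61 FPKM in CCl4 libraries (replicates 1 to 3), against 36.6, 45.1 and 83.1 FPKM in control libraries. The lowest control was 10.5 times the highest CCl4 library, so the groups lay far apart. Their means were 2.36 ± 0.998 and 54.9 ± 24.8 FPKM (SD, n = 3 each), a CCl4 level 0.0429 times that of control, and the log2 difference of log2(FPKM + 1), CCl4 minus control, was -4.01 ± 0.30 (SE). Nr4a1 encodes NUR77, first described as a gene induced by nerve growth factor, and lies on chromosome 15 at 101254269 to 101274795 (GRCm38, plus strand, protein-coding).

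Nr4a2, which encodes NURR1, the receptor that dopamine neurons need to develop, was listed at well under 1 FPKM in CCl4 libraries. It had 0.22, 0.20 and 0.10 FPKM there, and 1.12, 0.70 and 4.87 FPKM in control libraries. Every CCl4 library was below every control, while control replicate 3 was 6.96 times the lowest control. The log2 difference was -1.24 ± 0.39 (SE), a scale on which the added 1 FPKM compresses values this low, and with 0.1 FPKM added in place of 1 it was -2.66. The gene lies on chromosome 2 at 57106830 to 57124003, on the minus strand.

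Nr4a3, which encodes NOR1, was the receptor with overlapping groups. It had 0.45, 0.25 and 0.28 FPKM in CCl4 libraries and 0.23, 1.39 and 5.72 FPKM in control libraries. Control replicate 1 was the lowest of all 6 libraries, and the 3 controls spanned a factor of 24.9 while the CCl4 libraries spanned 1.80. The log2 difference was -1.03 ± 0.51 (SE). Nr4a3 lies on chromosome 4 at 48045153 to 48086447, on the plus strand. Both Nr4a2 and Nr4a3 reached the minimum mean of 1 FPKM over the 6 libraries only through their control values.

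**Figure D1:**
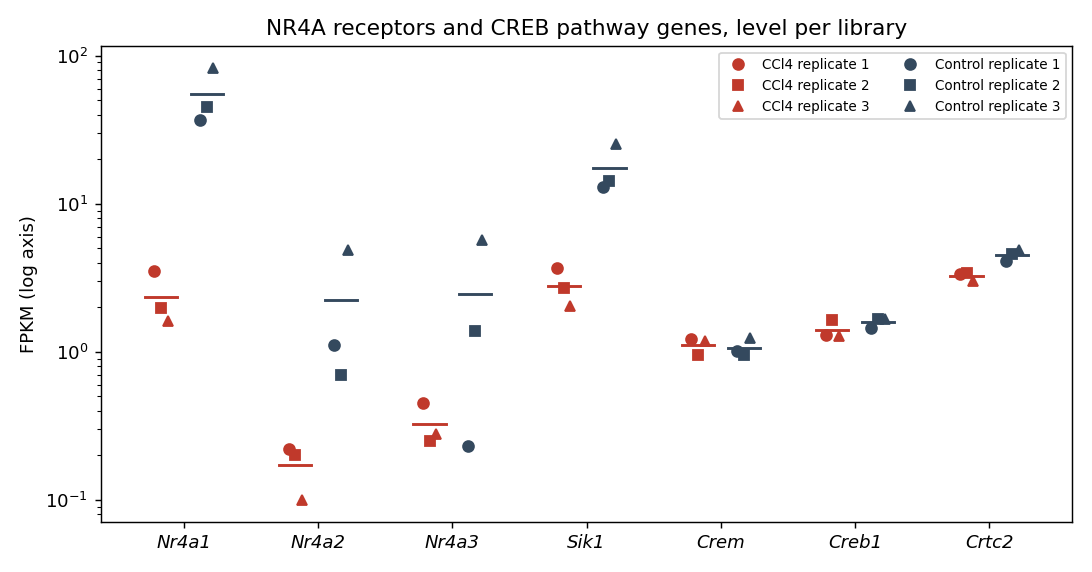
FPKM of each of the 7 genes in each library, on a log axis, with CCl4 libraries in red left of control libraries in dark blue, symbols for replicates and lines for group means. Nr4a1 sits at 1.61 to 3.49 FPKM in CCl4 and 36.6 to 83.1 FPKM in control libraries, while Nr4a3, Crem and Creb1 overlap between groups.

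Summed over the 3 receptors, NR4A transcripts came to 4.16, 2.42 and 1.99 FPKM in CCl4 libraries and 37.9, 47.2 and 93.7 FPKM in control libraries. Nr4a1 made up 80.9% to 83.9% of that sum in CCl4 and 88.7% to 96.4% in control libraries, and the ranges did not overlap. FPKM is per length of transcript, so levels of the receptors can be compared. Below Nr4a1, Nr4a3 exceeded Nr4a2 in all CCl4 libraries and in control replicates 2 and 3, with control replicate 1 the other way round.

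Sik1, the salt-inducible kinase of the feedback loop, was also lower in CCl4. Its levels were 3.66, 2.69 and 2.04 FPKM in CCl4 libraries, against 13.1, 14.2 and 25.2 FPKM in control libraries. The lowest control was 3.57 times the highest CCl4 library. The order of the libraries within each group was that of Nr4a1, highest in CCl4 replicate 1 and in control replicate 3. Means were 2.80 ± 0.815 and 17.5 ± 6.70 FPKM (SD, n = 3 each), with a log2 difference of -2.25 ± 0.24 (SE). The ratio of Nr4a1 to Sik1 was 0.732 to 0.954 in CCl4 and 2.80 to 3.30 in control libraries, so Nr4a1 was below Sik1 in every CCl4 library and above it in every control. Sik1 lies on chromosome 17 at 31844250 to 31855804, on the minus strand.

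Creb1, the cAMP response element binding protein itself, had 1.30, 1.64 and 1.29 FPKM in CCl4 libraries and 1.46, 1.68 and 1.66 FPKM in control libraries. The groups overlapped, and the log2 difference was -0.11 ± 0.09 (SE), beside a median of -0.09 over all 10995 tested rows. It was -0.20 when every library was rescaled to a common sum and -0.05 with median-ratio scaling. The first is called TPM here, though the common sum was the mean of the library sums. Creb1 lies on chromosome 1 at 64532645 to 64604548, on the plus strand.

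Crtc2, the CREB coactivator that salt-inducible kinases restrain, stood at 3.34, 3.42 and 2.99 FPKM in CCl4 libraries and 4.11, 4.55 and 4.84 FPKM in control libraries. The groups did not overlap, with the lowest control 1.20 times the highest CCl4 library. The means of 3.25 ± 0.229 and 4.50 ± 0.368 FPKM (SD, n = 3 each) gave a log2 difference of -0.37 ± 0.08 (SE). With TPM it was -0.49 and with median-ratio scaling -0.28. Crtc2 exceeded Creb1 in every library, by a ratio of 2.09 to 2.57 in CCl4 and 2.71 to 2.92 in control libraries. It lies on chromosome 3 at 90254163 to 90264125, on the plus strand.

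Crem encodes both activators and, from an internal promoter, the inducible repressor ICER, a short product that CREB switches on. A row per gene cannot separate them. Crem had 1.23, 0.95 and 1.18 FPKM in CCl4 libraries and 1.01, 0.96 and 1.24 FPKM in control libraries, with overlapping groups. The log2 difference of 0.03 ± 0.10 (SE) turned to -0.05 as TPM, so no direction can be given. The gene lies on chromosome 18 at 3266048 to 3337748, on the minus strand, and shares 472 exonic bases with Gm6225 on the opposite strand. Whether the quantification used strand is not given in the sources used here, but Gm6225 itself was at most 0.21 FPKM.

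Of the 7 genes, 4 passed an adjusted p of 0.05 in the fit across all rows, all of them lower in CCl4 (Nr4a1, Nr4a2, Sik1 and Crtc2), and the same 4 had groups that did not overlap. Across all 10995 tested rows 31.8% passed, 9.64% higher and 22.2% lower in CCl4, and 48.7% had groups that did not overlap. The members were chosen on this contrast, so nothing is read from their count. That count was 2 without CCl4 replicate 3, and 5 without control replicate 1, where Nr4a3 was added. It was 3 with no filter, with median-ratio scaling and without CCl4 replicate 1 or 2. Nr4a2 was lost in each of these and without CCl4 replicate 3, where Crtc2 was lost too. Scaling moved the background, since calls were 30.3% higher ones as deposited, 12.7% as TPM and 52.1% with median-ratio scaling, and the median log2 difference of all rows was -0.09 as deposited, -0.21 as TPM and -0.0028 with median-ratio scaling. Over all alternatives, each library left out included, the log2 difference of Nr4a1 ranged between -4.47 and -3.67 and that of Sik1 between -2.58 and -1.97.

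Among the 7 genes, the spread among controls was widest for the NR4A genes and Sik1. The control values were known when the genes were chosen, so this spread is a description only. Nr4a2 and Nr4a3 reached the minimum mean only through their controls, chiefly replicate 3, which by itself favours a wide control spread. The SD of log2(FPKM + 1) over the 3 controls was 0.60 for Nr4a1, 0.95 for Nr4a2, 1.23 for Nr4a3 and 0.49 for Sik1, larger than in 98.9%, 99.6%, 99.8% and 98.1% of all tested rows. It was 0.10 for Crem, 0.07 for Creb1 and 0.10 for Crtc2, larger than in 48.1%, 27.1% and 45.1% of rows. In CCl4 libraries the SD of Nr4a1 and Sik1 was also high, at 0.41 and 0.31 (98.4th and 96.6th percentiles), while those of Nr4a2 and Nr4a3 were 0.08 and 0.12. The added 1 FPKM compresses levels as low as those of Nr4a2 and Nr4a3 there. As a ratio of highest to lowest, the CCl4 libraries spanned 2.17 for Nr4a1, 2.2 for Nr4a2, 1.8 for Nr4a3 and 1.79 for Sik1.

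Control replicate 3 was the highest control for 6 of the 7 genes, all but Creb1. It was the highest control for 36.0% of all tested rows. Nr4a2 and Nr4a3 reached the minimum mean only with this library, so their high ratios below are no separate result. Its level was 2.03 times the mean of the other 2 controls for Nr4a1, 5.35 times for Nr4a2, 7.06 times for Nr4a3 and 1.85 times for Sik1, but 1.26, 1.06 and 1.12 times for Crem, Creb1 and Crtc2. Without that library the log2 difference was -3.67 for Nr4a1, -1.97 for Sik1, -0.70 for Nr4a2 and -0.37 for Nr4a3.

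**Figure D2:**
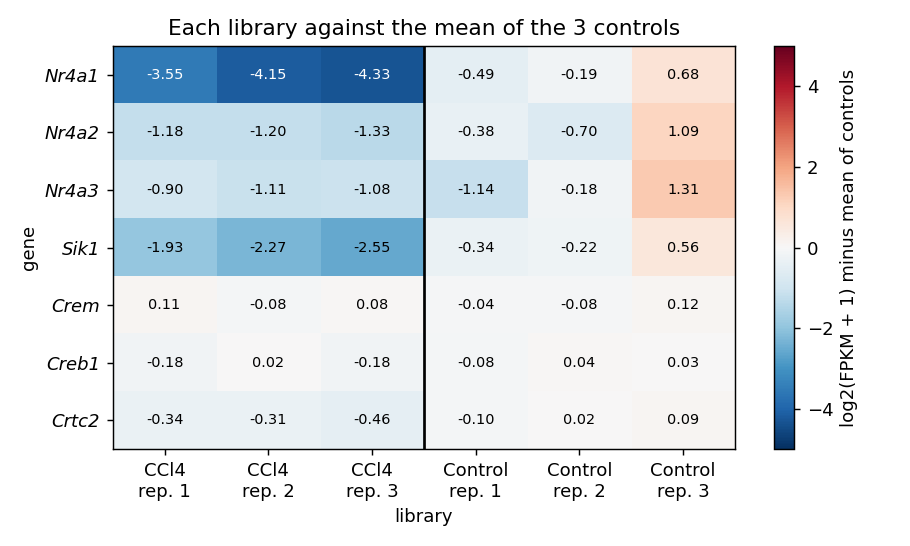
Each library's log2(FPKM + 1) minus the mean of the 3 controls, for each of the 7 genes (rows) and 6 libraries (columns, CCl4 left of control). Control replicate 3 stands at 0.56 to 1.31 for the NR4A genes and Sik1, and CCl4 libraries at -4.33 to -3.55 for Nr4a1.

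Control replicate 3 also held more RNA of atrial muscle. Its 5 atrial markers summed to 1605 FPKM, of which the natriuretic peptide gene Nppa was 1501 FPKM. Bmp10, a growth factor made by atrial myocytes, was at 16.2 FPKM there and at 0 in the other controls. Over all libraries the sums were 158.6 to 278.95 FPKM in CCl4 and 232.7 to 1605 FPKM in control libraries, and none of the 5 markers was called. CCl4 replicate 3 had 39.3 FPKM of the atrial light chain Myl7, against 1.68 and 4 FPKM in the other CCl4 libraries. Myl4 and Sln were also highest there among CCl4 libraries. Nppa was highest in CCl4 replicate 1, at 269.1 FPKM against 227.2 FPKM in CCl4 replicate 3, and Bmp10 was at most 0.01 FPKM in CCl4 libraries. The part of atrial tissue in the spread among controls was not tested.

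Most tested genes of a wider list of CREB targets were lower in CCl4. The list was chosen with earlier results of these data known, so its count is no independent evidence. The part of CREB in these values was not tested. Of 30 listed genes 18 were tested, and of these 15 fell and none rose, where 22.2% and 9.64% of all rows did, with a median log2 difference of -1.34 beside -0.09 over all rows. Btg2, an inhibitor of cell division, had 5.13, 7.15 and 5.42 FPKM in CCl4 libraries and 45.3, 46.1 and 83.0 FPKM in control libraries. Its log2 difference was -3.05 ± 0.23 (SE; adjusted p = 0.000139). Fos, a subunit of AP-1, fell to 0.17, 0.26 and 0.24 FPKM in CCl4, against 12.4, 3.69 and 10.98 FPKM in control libraries (-2.89 ± 0.34).

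Irs2, an adaptor of the insulin receptor, had 1.41, 0.94 and 0.97 FPKM in CCl4 and 4.11, 10.7 and 20.0 FPKM in control libraries (-2.36 ± 0.42, adjusted p = 0.00524). Like Nr4a3 it was lowest in replicate 1 and highest in replicate 3 among the controls. Rgs2, which shortens G protein signals, averaged 4.61 ± 0.719 FPKM in CCl4 and 20.7 ± 7.65 FPKM in control libraries (SD, n = 3 each; -1.88 ± 0.25, adjusted p = 0.00151). The clock gene Per1, with CREs of its own, averaged 6.08 ± 0.671 and 20.3 ± 2.87 FPKM (-1.59, adjusted p = 0.000124). Ppargc1a, the coactivator PGC-1alpha of mitochondrial genes, averaged 9.61 ± 0.950 and 16.2 ± 1.78 FPKM (-0.70, adjusted p = 0.00223), the smallest of the 15 falls.

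The 3 tested targets that did not pass were Pde4b, a cAMP phosphodiesterase, at a log2 difference of 0.07, the survival gene Mcl1 at -0.18 and the stress gene Gadd45b at -0.39. Fos and Bdnf, a neurotrophin, were the 2 of the 15 with a CCl4 mean under 1 FPKM, so they were tested only because of their controls, and their calls are no support for the count. The other 12 listed targets were under the minimum in the mean of all libraries, among them the gluconeogenic genes Pck1 and G6pc, and no statement is made on them. Control replicate 3 was the highest control for 11 of the 18 tested targets. Without that library 15 targets were again called lower, with Fos among them (adjusted p = 0.00232). The filter was still that set on all 6 libraries, so this is no separate support for the count.

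**Figure D3:**
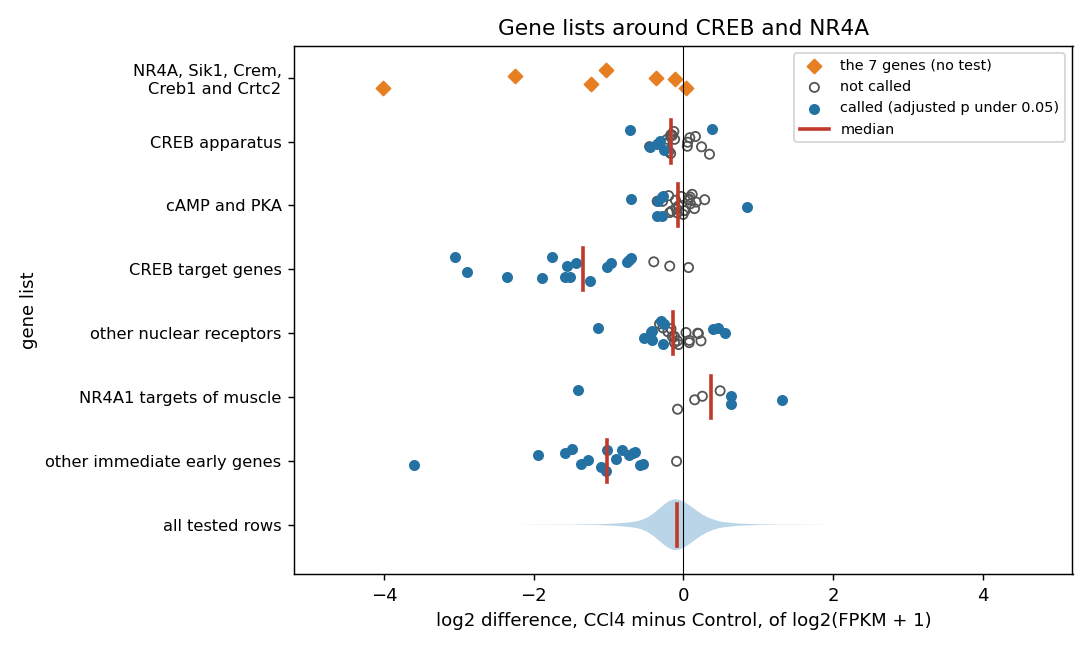
Log2 difference, CCl4 minus control, of log2(FPKM + 1) for each tested gene of each list (rows), filled where called, with the list's median in red, the 7 genes as diamonds and all tested rows as a violin. CREB targets centre at -1.34 and other immediate early genes at -1.02, while the CREB apparatus, cAMP and nuclear receptor lists centre between -0.17 and -0.07.

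Most tested immediate early genes listed apart from the CREB targets were also lower in CCl4. This list was likewise chosen with earlier results known, so its count is no independent evidence. Of 20 listed 17 were tested, 16 fell and none rose, where 22.2% of all rows fell and 9.64% rose, with a median of -1.02. Of the 16, 3 (Atf3, Myc and Socs3) had a CCl4 mean under 1 FPKM and were tested only because of their controls, so their calls are no support for the count. Atf3, a stress-induced repressor, had 0.72, 0.76 and 1.17 FPKM in CCl4 and 11.5, 20.7 and 42.6 FPKM in control libraries (-3.61 ± 0.38). Zfp36, which destabilises short-lived mRNAs, fell by 1.95 ± 0.12 (SE; adjusted p = 7.72e-05), Csrnp1, a nuclear protein induced by axin, by 1.59 and Maff, a small basic leucine zipper factor, by 1.48. Ier3 was the one that did not pass, at -0.09. Control replicate 3 was the highest control for 13 of the 17. These genes are also known to respond to the handling of tissue, whose part in the values was not tested. The same limit holds for the NR4A genes, which are immediate early genes too, for Sik1 and for CREB targets such as Fos.

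Of 26 listed genes of the CREB apparatus (CREB-related factors, coactivators, kinases and phosphatases) 22 were tested, 5 fell and 1 rose, with a median of -0.17. The share that fell is near the 22.2% of all rows, and 9.64% of all rows rose, so the count is not a result about the list. Sik3, a relative of Sik1, had 5.45, 5.72 and 6.21 FPKM in CCl4 and 12.6, 9.25 and 8.84 FPKM in control libraries (-0.71 ± 0.12, adjusted p = 0.0048). Stk11, the kinase LKB1 that activates the salt-inducible kinases, averaged 17.1 ± 0.484 and 23.7 ± 1.68 FPKM (SD, n = 3 each; -0.45, adjusted p = 0.00478). The coactivator Crebbp averaged 1.48 ± 0.0153 and 2.15 ± 0.0929 FPKM (-0.35, adjusted p = 0.00921). The ribosomal S6 kinase Rps6ka2 was the gene that rose, to 3.99 ± 0.229 FPKM in CCl4 against 2.81 ± 0.174 FPKM in control libraries (0.39, adjusted p = 0.00724).

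Ep300, the coactivator most like Crebbp, fell by 0.32 (adjusted p = 0.0217), and Atf1, the closest relative of Creb1, by 0.26 (adjusted p = 0.0317). Both calls were weak. That of Ep300 was lost without CCl4 replicate 1 or 2 or control replicate 1 or 3 (adjusted p 0.058 to 0.0622). It was also lost with no filter (0.0621) and with the replicate block (0.0504). That of Atf1 was lost with median-ratio scaling (adjusted p = 0.126), with the replicate block (0.0708) and on leaving out each CCl4 library or control replicate 2 or 3 (0.0565 to 0.0986). The other CRTC genes, Crtc1 at 1.07 ± 0.0874 and 1.33 ± 0.0862 FPKM and Crtc3 at 1.22 ± 0.212 and 1.53 ± 0.0625 FPKM, did not pass (adjusted p = 0.143 and 0.15) but did as TPM (0.0369 and 0.0459). Sik2 was at 0.97 ± 0.0777 and 1.19 ± 0.117 FPKM (adjusted p = 0.216). The list had 10 lower members as TPM, 3 higher with median-ratio scaling, 3 lower without CCl4 replicate 1, CCl4 replicate 2 or control replicate 3, and 2 higher without CCl4 replicate 1.

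Of 43 listed genes that make, break down or read cyclic AMP 28 were tested, 6 fell and 1 rose, with a median of -0.07. Beside the 22.2% of all rows that fell and the 9.64% that rose, this count too is not a result about the list. Pde4a, a phosphodiesterase that degrades cyclic AMP, rose to 6.57, 7.52 and 8.44 FPKM in CCl4, against 4.21, 3.04 and 3.87 FPKM in control libraries (0.86 ± 0.12, adjusted p = 0.00175). Adcy6, one of the main cyclases of heart muscle, had 25.5, 28.9 and 27.8 FPKM in CCl4 and 49.8, 45.3 and 39.99 FPKM in control libraries (-0.69 ± 0.10, adjusted p = 0.0018). Pde7a and Pde2a fell by 0.35 and 0.34 (adjusted p = 0.0251 and 0.0111), and Gnas, the stimulatory G protein, by 0.28 (adjusted p = 0.0173). With median-ratio scaling these last 3 were not called (adjusted p = 0.0925, 0.0522 and 0.103). Nor was Pde7a with no filter (adjusted p = 0.0695), without CCl4 replicate 3 (0.0917), control replicate 2 (0.0827) or control replicate 3 (0.0554). Gnas was not called without CCl4 replicate 2 (0.0602) or control replicate 2 (0.0575), or with the replicate block (0.0586).

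The catalytic subunit of protein kinase A, Prkaca, averaged 67.7 ± 5.22 and 72.6 ± 6.07 FPKM, and its regulatory subunit Prkar1a 83.3 ± 1.65 and 83.5 ± 3.62 FPKM (SD, n = 3 each; adjusted p = 0.439 and 0.977). The beta-1 adrenergic receptor Adrb1 was at 3.21 ± 0.841 and 3.05 ± 1.08 FPKM (adjusted p = 0.809). A p above 0.05 does not show that their levels were equal. The list had 1 lower member with median-ratio scaling and 9 as TPM. Lower members numbered 3 with no filter, 3 without CCl4 replicate 2 or CCl4 replicate 3 and 2 without control replicate 2, and higher ones 2 with median-ratio scaling or without control replicate 3.

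Among the 45 listed nuclear receptors outside the NR4A family 26 were tested, of which 8 fell and 3 rose, with a median of -0.13. These counts are near the shares over all rows, 22.2% lower and 9.64% higher. Nr1d1, the clock repressor REV-ERBalpha, rose by 0.55 (adjusted p = 0.00314). Pparg, the receptor of fat storage, fell by 0.52 (adjusted p = 0.0205), a call lost with no filter (adjusted p = 0.0772) and, narrowly, without control replicate 1 (0.05004). Of the RXR partners with which NR4A1 and NR4A2 can pair, Rxrg rose by 0.46 (adjusted p = 0.0193), a call lost on the TPM scale (adjusted p = 0.0744), without a filter (0.0622) and without CCl4 replicate 1 or 3 or control replicate 2 or 3 (0.0532 to 0.0686). Rxra did not pass at 7.58 ± 0.663 and 9.39 ± 1.13 FPKM (adjusted p = 0.0704). It did as TPM (adjusted p = 0.019) and with a common sum without mitochondrial rows (0.0396). The glucocorticoid receptor Nr3c1 was at 8.47 ± 1.03 and 7.28 ± 0.638 FPKM (adjusted p = 0.182; 0.0409 with median-ratio scaling). Lower members numbered 4 without control replicate 1, 5 without CCl4 replicate 1, CCl4 replicate 3 or control replicate 2, and 5 with median-ratio scaling. Higher ones were 1 as TPM and without CCl4 replicate 1, CCl4 replicate 3, control replicate 2 or control replicate 3, and 5 with median-ratio scaling.

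All 8 listed genes of glucose use reported as NR4A1 targets in skeletal muscle were tested. Of these 3 rose and 1 fell, with a median of 0.37, where 9.64% of all rows rose and 22.2% fell. The list was again chosen with earlier results known, so its count is no independent evidence. Eno3, the muscle enolase of glycolysis, had 785.1, 677.8 and 732.6 FPKM in CCl4 and 385.1, 255.1 and 252.5 FPKM in control libraries (1.32 ± 0.16, adjusted p = 0.00103). Pgam2, the muscle phosphoglycerate mutase, rose by 0.64 ± 0.11 (adjusted p = 0.00473). The glucose transporter Slc2a4 rose by 0.64 ± 0.18 (adjusted p = 0.0314), a call lost on the TPM scale (adjusted p = 0.0717), without a filter (0.107) and on leaving out each CCl4 library or control replicate 2 or 3 (0.0646 to 0.0956). Fbp2, the muscle fructose bisphosphatase, fell to 7.98 ± 2.19 FPKM in CCl4 against 22.3 ± 2.16 FPKM in control libraries (-1.40 ± 0.18, adjusted p = 0.0012). Of the 10 cardiomyocyte markers beside them 7 were not called. Actc1, the cardiac actin gene that takes a large part of their sum, had 5569 to 6091 FPKM in CCl4 and 1374 to 2276 FPKM in control libraries. Myh7, the slow myosin heavy chain, had 62.1 to 81.6 FPKM in CCl4 and 350.2 to 1492 FPKM in control libraries. The part of muscle cell makeup in these genes was not tested.

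Likeness of other genes to the 7 over the 6 libraries was the root mean square difference between mean-centred log2(FPKM + 1) values. A small value means a like direction and size only for genes that differ clearly between libraries. Genes that vary little, such as Crem and Creb1, are close to each other whatever their direction. Among the 5 nearest to Nr4a1 were Atf3 at 0.429, Nnt at 0.508, the pyruvate dehydrogenase kinase Pdk4 at 0.512 and the thioesterase Acot1 at 0.573. Nnt, a mitochondrial transhydrogenase, is known to carry a deletion in the C57BL/6J substrain, and had 2.27, 2.39 and 2.87 FPKM in CCl4 libraries against 59.5, 89.96 and 70.9 FPKM in control libraries. Mice of both groups were described as C57BL/6J, and their substrain was not tested. A difference in substrain and the effect of CCl4 cannot be told apart where they follow the same groups.

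Nearest to Sik1 were Angptl4, a lipase inhibitor, and Lgals4, a galectin, both at 0.265, and the matrix protein gene Ccn2 at 0.283. Nearest to Nr4a2 were the noncoding RNA gene H19 at 0.212 and Apold1, an endothelial early response gene, at 0.217. H19 was also nearest to Nr4a3 at 0.332, followed by the heat-shock gene Hspa1a at 0.336 and the natriuretic peptide gene Nppa at 0.342, which had 1501 FPKM in control replicate 3 and at most 272.2 FPKM elsewhere. Nearest to Crem, Creb1 and Crtc2 were Zswim1 at 0.0289, Snx10 at 0.0151 and Kdm3a at 0.0272. Among the 7 genes, Creb1 and Crtc2 were 0.142 apart and Creb1 and Crem 0.159, whereas Nr4a1 was 1.86 from Crtc2, 1.99 from Creb1 and 2.06 from Crem.

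**Figure D4:**
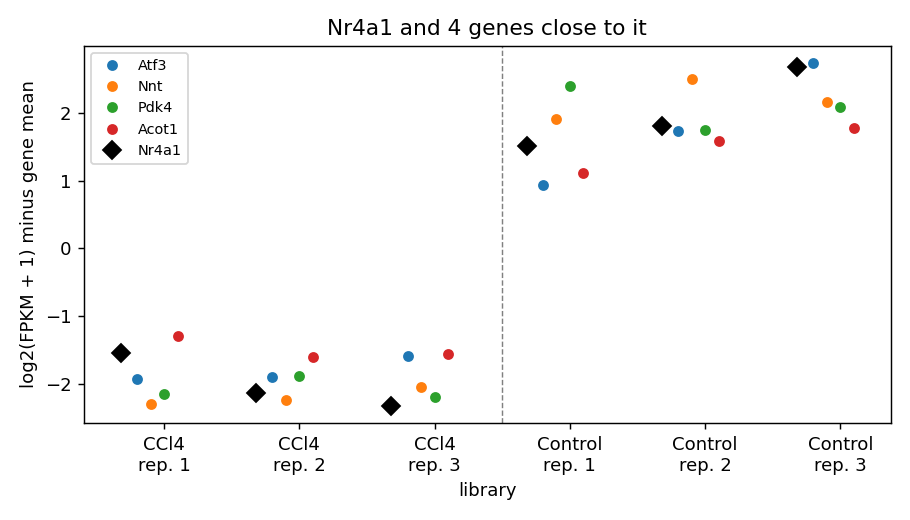
Mean-centred log2(FPKM + 1) of Nr4a1 (black diamonds) and 4 of the 5 genes nearest to it (circles) in each of the 6 libraries, CCl4 left of control. All 5 genes lie below their mean in every CCl4 library and above it in every control library, and all but Nnt and Pdk4 are highest in control replicate 3.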

How the data were processed

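RNA was purified on oligo(dT) beads, made into libraries with a uracil-marked second strand and read from both ends, per the labels' protocols. The deposited FPKM values (fragments scaled to transcript length and library size) were made by the authors using StringTie 2.1.6 and build GRCm38 (both per the submitters' processing notes). Neither the aligner nor the annotation release nor the strand setting is given in the sources used here. FPKM sums were 588660.5 to 602762.51 in CCl4 and 519608.87 to 542737.63 in control libraries, and the mitochondrial genome took 52.0% to 53.2% and 48.6% to 50.7% of them. No read counts were used, so depth is unknown, and no count test was run. From the deposited table log2(FPKM + 1), which understates changes of low genes, was computed for the 10995 of 32479 rows whose FPKM averaged 1 or more. The test was limma 3.58.1 (R 4.3.3, eBayes with trend), two-sided, with p-values adjusted by Benjamini-Hochberg over all tested rows, called at 0.05. The script was tested on simulated data. "Fell" and "rose" are used of called genes.

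The 7 genes and all lists were chosen with earlier results of these data known, so list counts are no independent evidence. Of each list the text names the 4 called genes with the largest difference and no overlap between groups, 17 genes whatever their result, and for likeness those among the 5 nearest genes. Some genes that these rules name are not reported here. Genes outside these rules (Mcl1, Gadd45b, Pde4b, Bdnf, Pck1, G6pc, Ier3, Gm6225, Myc, Socs3, Bmp10, Myl7, Myl4, Sln, Actc1, Myh7, Col1a1, Dcn, Gsn, Pdgfra, Tcf21) were picked after their values were seen. Positions are from GENCODE M21 (GRCm38) by symbol, and promoters from RefSeq. Nothing says that same-numbered libraries share a litter or day, so p-values measure only the spread between these libraries, which may be technical. Alternatives were a pseudocount of 0.1, no filter, a mean FPKM of at least 5, TPM, median-ratio scaling, a common sum without mitochondrial rows, limma without trend, the replicate block and leaving out each library. TPM here means FPKM rescaled so that every library had the mean library sum.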

Additional observations from a re-analysis of the deposited data

How the results depend on the processing

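Among the log2 differences of the 7 genes, Nr4a2 moved to -2.66 with a pseudocount of 0.1 and Crtc2 to -0.49 as TPM, and the other values stayed within 1 SD between replicates under every alternative run. Called rows were 1060 higher and 2441 lower as deposited, 655 and 1510 with a mean FPKM of at least 5, 618 and 4234 as TPM, 1713 and 1574 with median-ratio scaling, and 642 to 1137 and 1546 to 2121 with 1 library left out. The CREB apparatus had 0 higher and 3 lower members with a mean FPKM of at least 5, 3 higher with median-ratio scaling, 10 lower as TPM, and 1 to 2 higher and 3 to 5 lower with 1 library left out. The cAMP list had 2 higher and 1 lower with median-ratio scaling, 3 lower with no filter, and 1 to 2 higher and 2 to 5 lower with 1 library left out. Nuclear receptors had 1 higher as TPM, 5 higher and 5 lower with median-ratio scaling, 4 lower with no filter, 3 lower with a mean FPKM of at least 5, and 1 to 4 higher and 4 to 7 lower with 1 library left out. CREB targets had 1 higher with no filter. The replicate block gave 3 lower genes of the CREB apparatus, 3 of the cAMP list and 5 nuclear receptors, and 861 higher and 1790 lower rows in all. Same-numbered libraries did not deviate together (r over genes -0.064, 0.0461 and -0.038), where differently numbered ones gave -0.0975 to 0.123. With 3 libraries per group this cannot decide whether the numbers pair them. With a mean FPKM of at least 5, Nr4a1 and Sik1 were the members left. Groups of 3 are too small for a check of single outlying libraries, and without read counts the precision of genes under 1 FPKM is unknown.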
